A study of Mus musculus with 6 samples.

Results

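Cathepsins are the main proteases of the lysosome. The genes described here are the 10 whose symbol in the deposited tables is Ctsa, Ctsb, Ctsc, Ctsd, Ctsf, Ctsh, Ctsk, Ctsl, Ctss or Ctsz, out of 55401 gene identifiers, and all 10 were found once each. They were measured by sequencing of poly(A) RNA from mouse kidney in 6 libraries, 3 from WT/Sed and 3 from Cdo1KKO/Sed, each labelled as a biological replicate. Mice of both groups had been made diabetic with streptozotocin, a toxin of the insulin-producing beta cells. WT/Sed mice carried the genotype WT and Cdo1KKO/Sed mice the genotype named KO, and the comparison asks which kidney transcripts differ when Cdo1 of the tubule is targeted. The labels spell out neither Sed nor the allele or Cre driver of Cdo1KKO. They also give no age, sex, strain or batch, and they do not say whether each library came from its own mouse.

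The family holds 3 kinds of enzyme that share a route and a place but not a mechanism. Most members, Ctsb, Ctsc, Ctsf, Ctsh, Ctsk, Ctsl, Ctss and Ctsz, are cysteine proteases related to papain. Ctsd is an aspartic protease, and Ctsa is a serine carboxypeptidase. All are made as inactive precursors in the endoplasmic reticulum, sorted to the lysosome largely by mannose 6-phosphate tags, and activated there by acid pH and cleavage. Proximal tubule cells take up filtered protein by endocytosis and break it down in lysosomes, so kidney tubules carry a large amount of these enzymes, while Ctss is best known from antigen-presenting cells and Ctsk from bone-resorbing osteoclasts.

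The libraries held 28145261 to 43872779 counts, and the members 36 to 68265 counts per library, so counting error was small for all but Ctsk. Cdo1 itself stood at 181, 191 and 180.5 CPM (the count relative to the library size, scaled by the TMM method) in the 3 WT/Sed libraries and at 109.5, 118 and 102.5 CPM in the 3 Cdo1KKO/Sed libraries, so the targeted gene was lower but present there (59.8% of WT/Sed, adjusted p = 4.64e-06 by edgeR). The labelled tissue was checked against 10 markers of the proximal tubule, whose summed TPM (the deposited level per transcript length) was 4926 to 5604 in WT/Sed, against 3676 to 3965 in Cdo1KKO/Sed. All values come from whole kidney, where fewer cells of a type and less RNA per cell cannot be told apart.

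In WT/Sed kidney the members spanned a wide range of TPM, from Ctsb and Ctsl at the top to Ctsk at the bottom. Ctsb averaged 244 ± 10.4 TPM (SD, n = 3) and Ctsl 244 ± 10.1 TPM, with overlapping ranges. Ctsd (223 ± 4.57 TPM) and Ctsz (183 ± 0.814 TPM) followed, each below its upper neighbour in all libraries. Next came Ctsh (118 ± 14.05 TPM) and Ctsa (111 ± 3.22 TPM), whose ranges overlapped. Ctsf (23.8 ± 2.46 TPM), Ctss (15.8 ± 7.04 TPM) and Ctsc (14.4 ± 1.84 TPM) formed a lower tier in which each range overlapped the next, and Ctsk stood apart at 1.74 ± 0.472 TPM. In Cdo1KKO/Sed Ctsl alone led at 591 ± 34.4 TPM, well above Ctsb at 334.5 ± 2.82 TPM. In the lower tier Ctss (48.9 ± 0.434 TPM) and Ctsc (22.4 ± 0.382 TPM) were both above Ctsf (19.2 ± 1.79 TPM), with no overlap. Ctsh (99.3 ± 2.19 TPM) and Ctsa (104 ± 5.46 TPM) still overlapped.

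**Figure D1:**
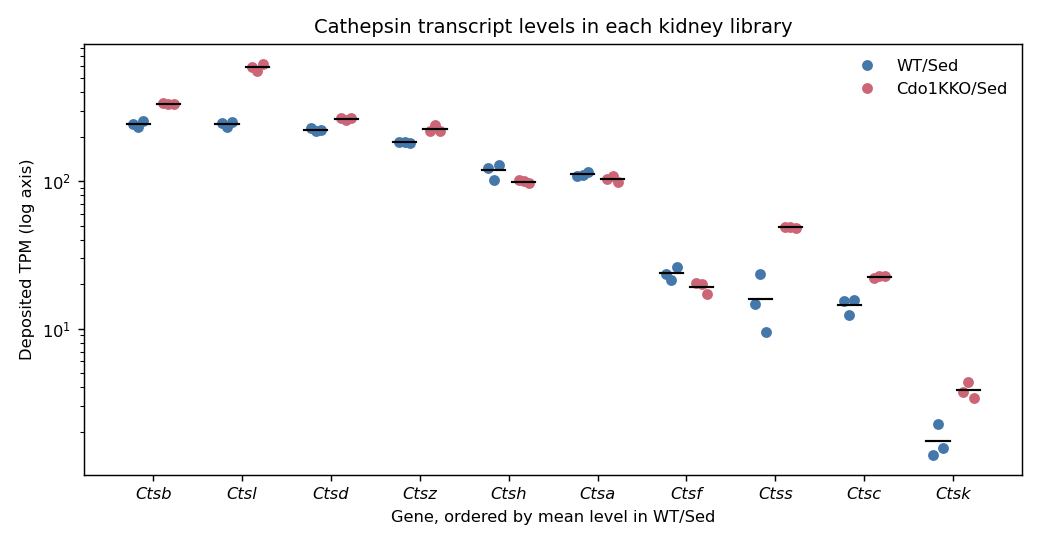
Deposited TPM (vertical log axis) of each cathepsin in each library, with genes ordered by their mean in WT/Sed; dots are libraries and bars are means of 3. Ctsl and Ctsb share the top in WT/Sed, and Ctsl alone leads in Cdo1KKO/Sed, between 556.9 and 625.6 TPM.

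The order between genes depends on the gene length used. The lengths implied by the deposited counts and TPM equal the union of all annotated exons, which is 6489 bases for Ctsl although its lowest-numbered transcript has 1971 bases, and 4499 bases for Ctsh against 1617 bases for its lowest-numbered transcript. With the lengths of these transcripts in place of the union, Ctsl reached 802 ± 33.1 TPM in WT/Sed and 1945 ± 113 TPM in Cdo1KKO/Sed and led in both groups, and Ctsh moved up to 329 ± 39.1 TPM in WT/Sed, next to Ctsb at 311 ± 13.2 TPM. With APPRIS principal transcripts, where Ctsl has a transcript of 6168 bases, Ctsh led in WT/Sed with a range that overlapped that of Ctsb. With either set of lengths Ctsc lay above Ctss in both groups, and Ctss overlapped Ctsf in Cdo1KKO/Sed. Which transcripts the kidneys held is not known from counts per gene. The length cancels in any comparison of the same gene between groups.

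Between the groups, 8 of the 10 cathepsins changed. Ctsl, Ctss, Ctsk, Ctsc and Ctsb rose in Cdo1KKO/Sed, Ctsf, Ctsh and Ctsa fell, and Ctsd and Ctsz did not pass the test. The words rose and fell are used where edgeR's quasi-likelihood test gave a Benjamini-Hochberg adjusted p under 0.05 over the 17194 genes tested. Of all genes tested 37.4% passed, 18.9% higher and 18.5% lower. The CPM ranges of the groups did not overlap for 8 of the 10 members, against 50.3% of all genes tested. The median log2 fold change (Cdo1KKO/Sed over WT/Sed) of the members was 0.13, and that of all genes was 0.0078. For each of the 8 members that changed, permuting the library labels exactly (2-sided, on CPM) gave p = 0.1, which is the lowest value possible with 3 libraries a group.

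These directions are relative to the median gene, since the scaling of the libraries moves all members together. Scaled by library size alone, the median of all genes was 0.18, and with the deposited TPM plus 1 it was 0.19. Of all calls, 50.5% were higher in Cdo1KKO/Sed with TMM, 76.6% under library size only, 84.3% under the TPM. Ctsd and Ctsz rose under both of those settings (Ctsd by 0.16 and 0.24, Ctsz by 0.22 and 0.30 on the log2 scale). The median of each setting was then subtracted, over all 17 alternatives and the main setting. Ctsl lay between 0.98 and 1.08, Ctsb between 0.18 and 0.26 and Ctsc between 0.28 and 0.42. Ctsd lay between -0.036 and 0.053 and Ctsz between -0.015 and 0.11. Ctsa lay between -0.41 and -0.29, Ctsh between -0.59 and -0.43 and Ctsf between -0.63 and -0.49. The widest ranges were those of Ctss, from 1.105 to 1.77, and Ctsk, from 0.63 to 1.13.

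**Figure D2:**
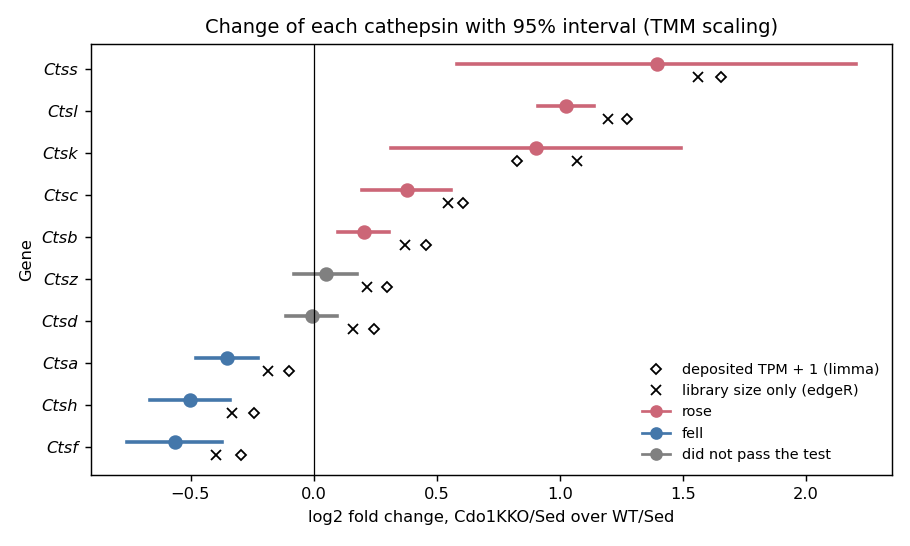
Log2 fold change of each cathepsin (horizontal axis, Cdo1KKO/Sed over WT/Sed) with its 95% interval under TMM scaling, and open diamonds and crosses for the deposited TPM and for library size only. The crosses lie to the right of the TMM value for all 10 genes and the diamonds for all but Ctsk; Ctsf, Ctsh and Ctsa stay below 0.

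Ctsl, an endopeptidase that degrades endocytosed protein and is itself abundant in tubule lysosomes, showed the smallest adjusted p of the members. Its locus is chromosome 13, 64359337 to 64370890, minus strand (positions here and below are on GRCm38, from GENCODE M21). Ctsl measured 706.5, 672.5 and 709 CPM in the WT/Sed kidneys, against 1406, 1354 and 1488 CPM with Cdo1KKO/Sed. All Cdo1KKO/Sed libraries were far above all WT/Sed libraries, and the spread within groups was small. The log2 fold change was 1.03 ± 0.05 (approximate SE, from the size of the change and its F statistic), a 2.04-fold rise with an adjusted p of 1.21e-07. It passed under all 17 alternatives, with log2 fold changes from 0.98 to 1.28. An antisense gene and a processed pseudogene annotated over Ctsl exons (1742 and 395 shared bases) held 0 counts in every library. How reads in shared bases were assigned is not given in the sources used here.

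Ctsb, an endopeptidase that also removes dipeptides from the carboxyl end of proteins, rose little. Its libraries held 649.7, 630.2 and 668 CPM in WT/Sed, against 749.5, 759.5 and 735.5 CPM in Cdo1KKO/Sed. All Cdo1KKO/Sed libraries were above all WT/Sed libraries, by a small step next to that of Ctsl. The log2 fold change was 0.20 ± 0.05 (adjusted p = 0.00552), and it passed under all alternatives. Ctsb (chromosome 14, 63122462 to 63145923, plus strand) shares 774 exonic bases with Fdft1 on the opposite strand, and whether the counting used strand is not given in the sources used here. Fdft1 held 770 to 1434 counts per library against 16814 to 33739 for Ctsb.

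By the deposited TPM, Ctsl and Ctsb had like levels in WT/Sed but not in Cdo1KKO/Sed. In TPM, Ctsl stood at 1.01, 0.995 and 0.989 times Ctsb in the 3 WT/Sed libraries and at 1.75, 1.66 and 1.89 times in the 3 Cdo1KKO/Sed libraries. This ratio is free of the scaling of libraries, but its level depends on the gene lengths. With the lowest-numbered transcripts it was 2.55 to 2.62 in WT/Sed, against 4.29 to 4.87 in Cdo1KKO/Sed. With APPRIS principal lengths it was 0.815 to 0.836 in WT/Sed, against 1.37 to 1.56 in Cdo1KKO/Sed. The ratio of Ctsl to the aspartic protease Ctsd was 1.09, 1.06 and 1.14 in WT/Sed, and in Cdo1KKO/Sed it was 2.20, 2.16 and 2.35.

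Ctss and Ctsk are neighbours on the plus strand of chromosome 3, Ctsk from 95499256 to 95509362 and Ctss from 95526786 to 95556403, with 17423 bases and no other annotated gene wholly between them. Ctss, an endopeptidase that stays active at neutral pH and cleaves the invariant chain of MHC class II, had the largest log2 fold change of the 10. Its WT/Sed libraries held 8.79, 14.2 and 5.57 CPM and its Cdo1KKO/Sed libraries 24.6, 25.0 and 24.1 CPM. The WT/Sed libraries were uneven, with replicate 2 highest and replicate 3 lowest, while the Cdo1KKO/Sed libraries were nearly equal. The log2 fold change was 1.39 ± 0.32 (95% interval 0.58 to 2.20, adjusted p = 0.0209). Leaving out WT/Sed replicate 1 ended the call (adjusted p = 0.0770). So did leaving out any 1 Cdo1KKO/Sed library (0.0535 to 0.0554) or dropping the filter on low counts (0.0758). The log2 fold changes in these settings ran from 1.34 to 1.40.

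Ctsk, a strong collagenase, was the least abundant member. Its counts were 36, 41 and 42 in WT/Sed, against 68, 98 and 86 in Cdo1KKO/Sed. These gave 0.925, 1.54 and 1.02 CPM for WT/Sed, and 2.08, 2.465 and 1.875 CPM for Cdo1KKO/Sed. The groups did not overlap, and WT/Sed replicate 2 came closest to Cdo1KKO/Sed. Its log2 fold change of 0.90 ± 0.27 (95% interval 0.31 to 1.49, adjusted p = 0.0210) lost its call without WT/Sed replicate 1 (0.0928), Cdo1KKO/Sed replicate 1 (0.0613) or Cdo1KKO/Sed replicate 2 (0.0950).

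Ctsc, dipeptidyl peptidase 1, trims the precursors of granule serine proteases in neutrophils, mast cells and cytotoxic lymphocytes. It rose from 39.4, 31.9 and 39.3 CPM in WT/Sed to 46.8, 49.2 and 48.1 CPM in Cdo1KKO/Sed (log2 fold change 0.38 ± 0.08, adjusted p = 0.00383), and it passed under all alternatives. WT/Sed replicate 2 was the low library, and the groups did not overlap. Ctsc lies on the plus strand of chromosome 7 from 88278085 to 88310888. Of 8 fixed genes for granule proteases, most of them known as Ctsc substrates, only Gzma and Gzmb had enough counts to be tested, and neither passed (log2 fold changes 0.81 ± 0.47 and 1.24 ± 0.79, adjusted p 0.200 and 0.249). Gzmb passed without WT/Sed replicate 2 (0.00529), and Gzma with the TPM plus 1 (0.0254). The neutrophil genes Elane, Prtn3 and Ctsg were at 0.00 to 0.233 TPM in every library.

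Ctsd and Ctsz did not pass the test. Ctsd, the main aspartic protease of lysosomes (chromosome 7, 142375911 to 142388038, minus strand), held 236, 230.0 and 226 CPM in WT/Sed, against 231, 227 and 229.8 CPM in Cdo1KKO/Sed, with overlapping groups. Its log2 fold change was -0.0075 ± 0.047 with a 95% interval of -0.11 to 0.096 (adjusted p = 0.920). Ctsd shares 808 exonic bases with another protein-coding gene on the same strand, which held 0 counts in every library. Ctsz, a carboxypeptidase also called cathepsin X (chromosome 2, 174427493 to 174439039, minus strand), held 116, 118 and 114 CPM in WT/Sed, against 115.5, 129 and 115 CPM in Cdo1KKO/Sed. Cdo1KKO/Sed replicate 2 was above all others, and the remaining libraries were mixed (log2 fold change 0.049 ± 0.058, 95% interval -0.078 to 0.18, adjusted p = 0.546).

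Ctsf and Ctsh were the members that fell most. Ctsf, a papain-like protease with a long propeptide (chromosome 19, 4855130 to 4860918, plus strand), went from 52.5, 48.3 and 57.8 CPM in WT/Sed to 37.85, 37.95 and 31.7 CPM in Cdo1KKO/Sed. All Cdo1KKO/Sed libraries were below all WT/Sed libraries, and replicate 3 was the lowest of them (log2 fold change -0.56 ± 0.09, adjusted p = 4.89e-04). Ctsh, an aminopeptidase (chromosome 9, 90054152 to 90076089, plus strand), went from 243, 205.5 and 253 CPM to 167, 169 and 159.7 CPM. WT/Sed replicate 2 was low among its group and still above Cdo1KKO/Sed (log2 fold change -0.50 ± 0.07, adjusted p = 3.22e-04). Both calls ended with the TPM plus 1 on all genes (adjusted p 0.0785 for Ctsf and 0.103 for Ctsh). The log2 fold changes there were -0.29 and -0.24.

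Ctsa, known as protective protein, holds the sialidase Neu1 and the beta-galactosidase Glb1 in a lysosomal complex that can also take up the sulfatase Galns. Ctsa fell from 226, 231 and 235 CPM in WT/Sed to 180.1, 192 and 169 CPM in Cdo1KKO/Sed, without overlap (log2 fold change -0.35 ± 0.06, adjusted p = 5.88e-04). Its call ended with the TPM (adjusted p 0.132 to 0.200, log2 fold change -0.10). All 3 partners fell as well (18.5% of all genes tested fell). Neu1 went from 475, 476 and 458 CPM to 238, 259.6 and 240.0 CPM (log2 fold change -0.93 ± 0.05), Glb1 fell by 0.62 and Galns by 0.45 on the log2 scale, with adjusted p values of 2.74e-07, 9.95e-06 and 2.42e-04. The TPM ratio of Ctsa to Neu1 was 0.376, 0.384 and 0.407 in WT/Sed, against 0.599, 0.587 and 0.558 in Cdo1KKO/Sed. Ctsa (chromosome 2, 164832873 to 164841032, plus strand) shares 495 exonic bases with Pltp and 324 with Neurl2, both on the opposite strand and both with at most 133 counts per library against 5881 or more for Ctsa.

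Ctsl held a larger share of the cathepsin transcripts in Cdo1KKO/Sed. The deposited TPM placed the median gene higher in Cdo1KKO/Sed, by 0.19 on the log2 scale with plus 1. In that measure the summed TPM of the 10 genes was 1189, 1139 and 1205 in WT/Sed, against 1713, 1694 and 1728 in Cdo1KKO/Sed. Ctsl made up 20.8%, 20.4% and 20.85% of this sum in WT/Sed, against 34.4%, 32.9% and 36.2% in Cdo1KKO/Sed. The share of Ctsb was 20.5% to 21.1% in WT/Sed, against 19.2% to 19.8% in Cdo1KKO/Sed; with APPRIS principal lengths it was 19.4% to 19.8% and 19.8% to 20.2%, so its direction depends on the lengths. The share of Ctsd went from a range of 18.3% to 19.2% down to 15.2% to 15.6%, and that of Ctsh from a range of 8.98% to 10.7% down to 5.60% to 5.91%. Ctss held 0.783% to 2.05% of the sum in WT/Sed, against 2.80% to 2.90% in Cdo1KKO/Sed. With the lengths of the lowest-numbered transcripts Ctsl made up 37.2% to 37.3% in WT/Sed, against 54.1% to 57.7% in Cdo1KKO/Sed. With principal lengths its share was 16.15% to 16.3% in WT/Sed, against 27.7% to 30.8% in Cdo1KKO/Sed, and that of Ctsh was 18.9% to 22.0% in WT/Sed, against 12.6% to 13.2% in Cdo1KKO/Sed.

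**Figure D3:**
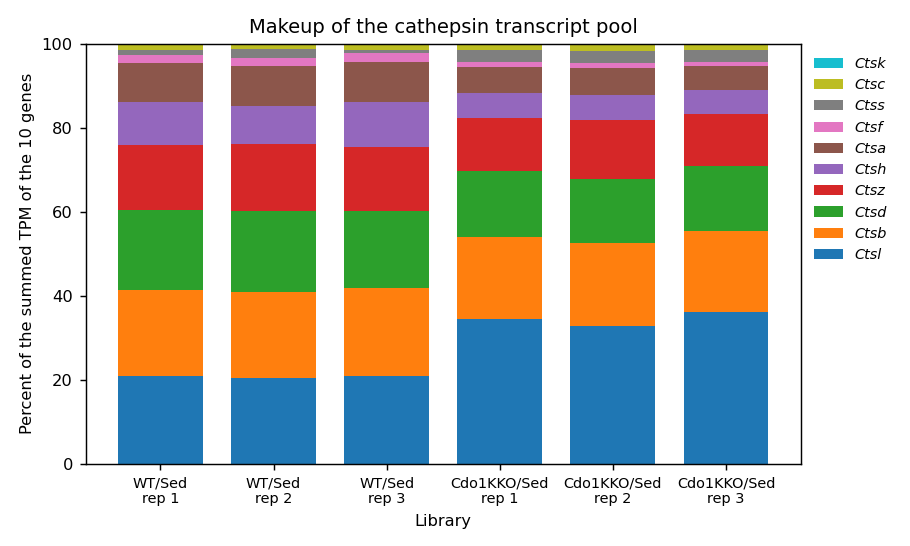
Share of each cathepsin in the summed deposited TPM of the 10 genes (vertical axis, percent), with a stacked bar for each library. Ctsl takes 20.4% to 20.85% in WT/Sed, against 32.9% to 36.2% in Cdo1KKO/Sed, and the bands of Ctsh and Ctsa narrow.

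Other cathepsin genes added little. Of 13 on a fixed list, Ctso, Ctse and Ctsw had enough counts to be tested and none passed (adjusted p 0.0617, 0.598 and 0.976 by edgeR). Unadjusted, only Ctso was under 0.05, and it fell without WT/Sed replicate 2 (adjusted p = 0.00530). Ctso stood at 41.8, 36.5 and 42.0 CPM in WT/Sed, against 33.7, 34.5 and 37.2 CPM in Cdo1KKO/Sed, and Ctse and Ctsw were under 1.2 TPM in every library. Mouse chromosome 13, which carries Ctsl, also carries a cluster of cathepsin genes known from placenta. Of 9 such genes, 8 had 0 counts in all 6 libraries and the remaining one, Ctsm, had 4 counts in all.

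A list of protease inhibitors, made of cystatins, kininogens, Fetub and serpins, was set beside the cathepsins; not all of them act mainly on cysteine proteases. Of 15 listed genes 8 were tested. Of these, 6 rose and Fetub fell, where 18.9% of all genes tested rose and 18.5% fell. The median log2 fold change was 0.80. Cstb (stefin B), which blocks papain-like cathepsins in the cytosol, rose from 43.0, 41.2 and 42.4 CPM to 108, 109 and 117 CPM (log2 fold change 1.40 ± 0.05, adjusted p = 1.47e-08). The TPM ratio of Ctsl to Cstb was 1.53, 1.52 and 1.55 in WT/Sed, against 1.21, 1.15 and 1.18 in Cdo1KKO/Sed. Cst3 (cystatin C), the main secreted inhibitor, did not pass: 95.4, 91.4 and 88.9 CPM in WT/Sed, against 84.8, 85.1 and 80.3 CPM in Cdo1KKO/Sed (log2 fold change -0.14 ± 0.05, adjusted p = 0.0563). The serpin Serpinb1a, an inhibitor of neutrophil serine proteases, rose by 1.24 ± 0.09 and Serpinb6a by 0.36 ± 0.09. Serpina3g, with 0, 9 and 18 counts in WT/Sed, against 28, 41 and 54 in Cdo1KKO/Sed, rose by 2.00 ± 0.69 (adjusted p = 0.0482), and lost its call without any 1 Cdo1KKO/Sed library (0.105 to 0.156). The kininogens, plasma proteins with cystatin domains, rose too, Kng1 by 1.69 ± 0.29 and Kng2 by 0.23 ± 0.06. Kng1 had only 16, 18 and 27 counts in WT/Sed, against 60, 69 and 93 in Cdo1KKO/Sed. Kng2 had 7386 to 16049 counts per library. Serpinb6a, Kng2 and Fetub lost their calls when WT/Sed replicate 1 was left out (adjusted p 0.0733, 0.0566 and 0.0726), and each of them also without at least 1 Cdo1KKO/Sed library.

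Genes that sort and process lysosomal enzymes moved in both directions. Of 14 tested, 3 rose and 2 fell, with a median log2 fold change of -0.056. These counts are near the shares of all genes tested, of which 18.9% rose and 18.5% fell. Scarb2 (LIMP-2), the membrane protein that carries beta-glucocerebrosidase to lysosomes, went from 43.1, 40.9 and 40.7 CPM to 87.0, 82.2 and 85.6 CPM (log2 fold change 1.03 ± 0.05, adjusted p = 1.61e-07), close in size to the rise of Ctsl. The sorting receptor Sort1 (sortilin) rose by 0.56 ± 0.08. The subunits of the enzyme that starts the mannose 6-phosphate tag diverged: Gnptab rose by 0.25 ± 0.08 and Gnptg fell by 0.46 on the log2 scale (adjusted p 0.0269 and 1.09e-04). Leaving out WT/Sed replicate 1, Cdo1KKO/Sed replicate 1 or Cdo1KKO/Sed replicate 2 ended the call for Gnptab (adjusted p 0.0510 to 0.118). Psap, the precursor of the saposins, fell (-0.28 ± 0.07), though not under library size only or the TPM (adjusted p 0.207 to 0.900). The receptors for the tag, M6pr and Igf2r, did not pass (adjusted p 0.107 and 0.399). Lgmn, the legumain that cleaves cathepsin precursors, stood at 583, 503 and 626 CPM in WT/Sed, against 571, 582 and 563 CPM in Cdo1KKO/Sed.

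Among 25 other lysosomal hydrolases, 16 fell, against 18.5% of all genes tested, and the median log2 fold change was -0.22. With the TPM plus 1, where the median gene is 0.19 higher, 6 fell. The peptidases of that list, Tpp1 and Dpp7, fell by 0.55 and 0.59 on the log2 scale (adjusted p 1.22e-05 and 5.77e-05), and the arylsulfatase Arsb by 0.59. Ctsa, Ctsf and Ctsh moved in the direction of these 16, and Ctsl, Ctss, Ctsk, Ctsc and Ctsb in the opposite direction. Of 13 lysosomal membrane genes, 2 rose and 4 fell, where 18.9% of all genes tested rose and 18.5% fell. The cholesterol transporter Npc1 rose by 0.32 ± 0.07 and Laptm5, which is known from blood cells, by 1.18 ± 0.26. Lamp1, Slc17a5, Clcn7 and Ostm1 fell (-0.24 ± 0.05, -0.47 ± 0.08, -0.17 ± 0.06 and -0.21 ± 0.07). Slc17a5 lost its call with the TPM, and Lamp1, Clcn7 and Ostm1 changed sign there, without passing the test. Those 3 also did not pass under library size only (adjusted p 0.283 to 0.993), nor Clcn7 with DESeq2 (0.0572), no filter (0.0523) or a filter of 1 CPM (0.0509). The calls for Clcn7 and Ostm1 also ended without WT/Sed replicate 1 or Cdo1KKO/Sed replicate 1 (adjusted p 0.0658 to 0.169).

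**Figure D4:**
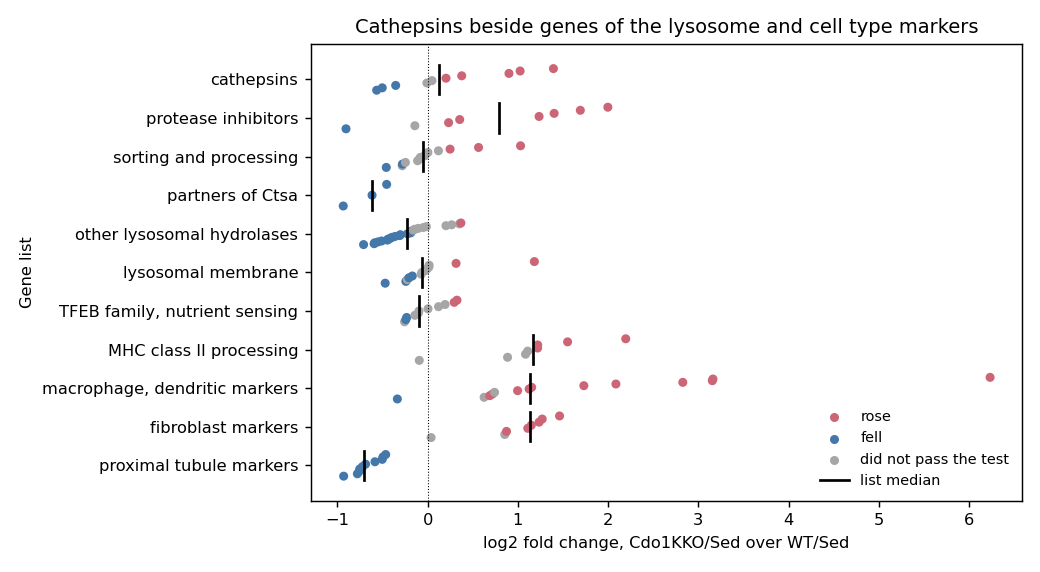
Log2 fold change (horizontal axis, Cdo1KKO/Sed over WT/Sed) of every tested gene of the lists named on the vertical axis. Each dot is a gene and each black bar a list median. The lists of other cathepsins, Ctsc substrates, neutrophil, T and NK cell and osteoclast genes are not drawn. The cathepsins spread from -0.56 to 1.39 around a median of 0.13, while the other hydrolases centre on -0.22 and the proximal tubule markers on -0.70.

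Transcription factors of the TFEB family drive many lysosomal genes through the E-box CACGTG. Tfeb itself did not pass (12.3 ± 2.00 CPM in WT/Sed, against 11.4 ± 1.19 CPM in Cdo1KKO/Sed, SD, n = 3, with adjusted p = 0.581 by edgeR). Its relatives Mitf and Tfe3 rose by 0.33 ± 0.08 and 0.30 ± 0.08 on the log2 scale. Both calls ended without Cdo1KKO/Sed replicate 3 (adjusted p 0.0609 and 0.0874). Tfec and Flcn fell (-0.24 ± 0.08 and -0.23 ± 0.08), with calls that ended under several alternatives. With the TPM plus 1 their log2 fold changes were 0.010 and 0.024. In all, 2 of the 11 genes on this list rose, 2 fell and 7 did not pass, Tfeb among them. These counts are near the shares of all genes tested, of which 18.9% rose and 18.5% fell.

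RefSeq promoter windows (GRCm38.p6, 250 bases before to 50 bases from each start site) were at hand for 8 of the 10 members, 9 windows in all; Ctsb and Ctsh had none. They were searched on both strands for CACGTG, for its longer form TCACGTGA, which always contains it, for the repeat bound by interferon regulatory factors (GAAA, any 2 bases, GAAA), and for the AP-1-type TGANTCA. The E-box CACGTG occurred in windows of Ctsa, Ctsd, Ctsl and Ctsf, and in 7.15% of all 32851 windows. TCACGTGA occurred in Ctsa and Ctsd, against 0.974% of all windows. Stretches of 30 bases around each match are shown because these genes moved in different directions. Capitals mark CACGTG, and sequences read 5′ to 3′ on the gene's strand.
Ctsa (chr2:164833749-164833778, plus strand): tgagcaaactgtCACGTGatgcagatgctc
Ctsa (chr2:164833766-164833795, plus strand): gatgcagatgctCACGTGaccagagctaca
Ctsd (chr7:142388048-142388077, minus strand): tccccCACGTGacctgtatccagtcattct
Ctsd (chr7:142387908-142387937, minus strand): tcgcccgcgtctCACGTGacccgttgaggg
Ctsl (chr13:64370739-64370768, minus strand): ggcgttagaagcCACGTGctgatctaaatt
Ctsf (chr19:4855074-4855103, plus strand): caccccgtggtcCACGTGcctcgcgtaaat

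The pair of matches in Ctsa overlap in the bases shown and begin 12 bases before and at base 6 of the RefSeq start site. Both lie within an annotated GENCODE exon. In Ctsd the matches begin 245 and 98 bases before the start site, the former ending 29 bases upstream of the GENCODE gene and the latter within an annotated exon. The match in Ctsl begins 236 bases before the start site, inside the gene but outside its annotated exons, and that in Ctsf ends 39 bases upstream of the gene. So CACGTG was found in the windows of members that fell (Ctsa and Ctsf), rose (Ctsl) and did not pass (Ctsd). A match is a description of the letters and not a bound site.

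Of the members, only Ctss held the interferon regulatory factor repeat, which is in 3.44% of all windows. It begins 21 bases before the start site and ends 12 bases upstream of the gene. Capitals mark the repeat.
Ctss (chr3:95526755-95526784, plus strand): gtctttaaatGAAACCGAAAtgaaagttca
No member window held TGANTCA, which occurs in 7.81% of all windows.

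Ctss works with the products of the MHC class II genes. Of 8 genes on a fixed list, 4 rose, against 18.9% of all genes tested, and none fell. The median log2 fold change was 1.16. The class II transactivator Ciita rose by 2.20 ± 0.15, H2-DMb1 by 1.55 ± 0.10, H2-DMa by 1.22 ± 0.16 and H2-Ab1 by 1.22 ± 0.34 (adjusted p 1.10e-06, 8.10e-07, 1.26e-04 and 0.0487). H2-Ab1 lost its call when WT/Sed replicate 1 or a Cdo1KKO/Sed library was left out (0.104 to 0.128), with upper quartile scaling (0.0559) and with no filter (0.105). Cd74, the invariant chain that Ctss cleaves, stood at 60.7, 91.0 and 36.2 CPM in WT/Sed, against 134, 125 and 137 CPM in Cdo1KKO/Sed, without overlap. It did not pass (log2 fold change 1.09 ± 0.36, adjusted p = 0.0797), but did with DESeq2 (0.0124) and limma-voom (0.00245). The class II chains H2-Eb1 and H2-Aa did not pass by edgeR either (1.11 ± 0.39 and 0.89 ± 0.43, adjusted p 0.0914 and 0.187). Both passed with limma-voom (0.00256 and 0.011). In WT/Sed, Cd74 and H2-Ab1 were highest in replicate 2 and lowest in replicate 3, as Ctss was. H2-DMa and H2-DMb1 were highest in replicate 1, and Ciita was nearly even (1.72, 1.87 and 1.73 CPM). The TPM ratio of Ctss to Cd74 was 0.179, 0.192 and 0.190 in WT/Sed, against 0.226, 0.247 and 0.218 in Cdo1KKO/Sed. Ifi30, a lysosomal thiol reductase of the same pathway, did not pass (adjusted p = 0.395).

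Markers of macrophages and dendritic cells were higher in the same libraries. Of 14 markers 11 rose (18.9% of all genes tested rose) and Csf1r fell. Their summed TPM was 56.0 to 105.5 in WT/Sed, against 623 to 665 in Cdo1KKO/Sed, where Cd14 made up most of it, at 3.81 to 6.30 TPM in WT/Sed, against 431 to 457 TPM in Cdo1KKO/Sed. Without Cd14 the sum was 78.2, 99.2 and 52.2 TPM in WT/Sed, against 196.5, 208 and 192 TPM in Cdo1KKO/Sed, so replicate 2 was highest and replicate 3 lowest of WT/Sed for these markers too. None of the 14 was at 0 in all libraries. The lysozyme gene Lyz2 rose by 1.73 ± 0.29, Cd68 by 3.16 ± 0.29 and complement C1qb by 0.72 ± 0.20. C1qb lost its call when WT/Sed replicate 1 or a single Cdo1KKO/Sed library was left out (adjusted p 0.0548 to 0.0818). Csf1r, the receptor that macrophages depend on, went from 44.9, 53.15 and 40.8 CPM to 36.0, 37.1 and 36.8 CPM (log2 fold change -0.33 ± 0.09, adjusted p = 0.0119), and lost its call without Cdo1KKO/Sed replicate 1 (0.0563). None of the 14 fell under library size only or the TPM. The TPM ratio of Ctss to C1qb was 1.17, 1.34 and 1.01 in WT/Sed, against 1.97, 1.83 and 1.95 in Cdo1KKO/Sed, whereas that of Ctss to Lyz2 was 0.720, 0.974 and 0.857 in WT/Sed, against 0.698, 0.621 and 0.717 in Cdo1KKO/Sed. The part of these cells in the rise of Ctss was not tested. Of 8 neutrophil markers 5 were tested and 4 rose, where 18.9% of all genes tested rose. The summed TPM of the 8 was 2.73 to 6.85 in WT/Sed, against 55.95 to 75.5 in Cdo1KKO/Sed. In Cdo1KKO/Sed S100a8 (16.2 to 20.65 TPM) and S100a9 (33.9 to 45.3 TPM) made up most of that sum. Cxcr2 did not pass by edgeR (adjusted p = 0.119), but did with the TPM plus 1 (0.0326). Ly6g was at 0.00 to 0.126 TPM over both groups and Mpo at 0.00 to 0.157 TPM. None of the 5 T and NK cell markers tested passed, in a list whose summed TPM was 2.67 to 4.41 in WT/Sed, against 4.41 to 6.12 in Cdo1KKO/Sed.

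**Figure D5:**
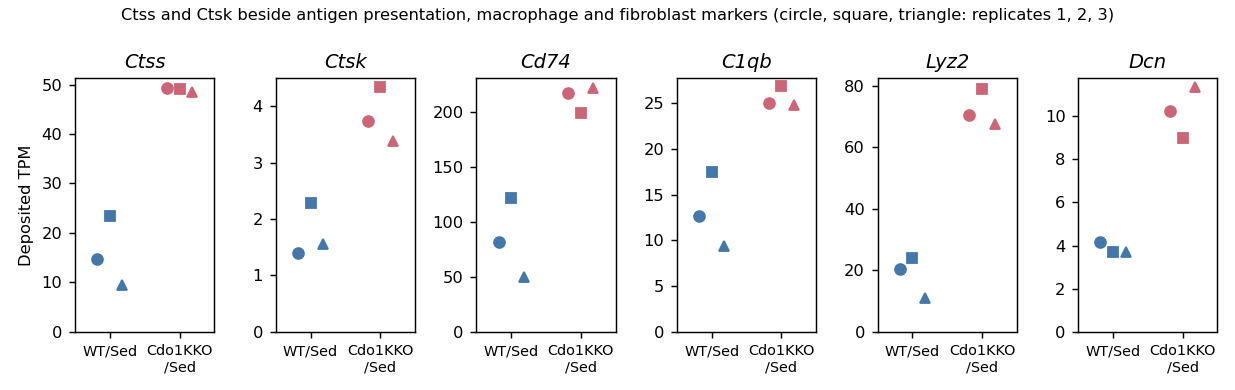
Deposited TPM (vertical axes from 0) of Ctss, Ctsk, the invariant chain Cd74, the macrophage genes C1qb and Lyz2 and the fibroblast gene Dcn; symbols mark replicates 1, 2 and 3 and colours the groups. For Ctss, Cd74, C1qb and Lyz2 the square (replicate 2) is highest and the triangle (replicate 3) lowest in WT/Sed, and no gene shown overlaps between groups.

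Ctsk was set beside genes of the cells best known to express it. Of 8 fibroblast markers 6 rose (18.9% of all genes tested rose), and Lum and Postn did not pass. Decorin (Dcn) rose by 1.15 ± 0.10, the receptors Pdgfra and Pdgfrb by 1.27 ± 0.19 and 1.11 ± 0.22, and the summed TPM of the list was 10.2 to 15.7 in WT/Sed, against 30.1 to 36.1 in Cdo1KKO/Sed. Of 6 osteoclast genes, 4 were tested. Calcr and Mmp9, each under 2 TPM in every library, and Atp6v0d2, a proton pump subunit that kidney expresses too, rose (1.605 ± 0.26, 2.14 ± 0.45 and 0.34 ± 0.09). Atp6v0d2 lost its call when WT/Sed replicate 1 or Cdo1KKO/Sed replicate 3 was left out (adjusted p 0.0597 and 0.0599). Acp5, which encodes the tartrate-resistant acid phosphatase of osteoclasts, fell by 0.79 on the log2 scale, and the fusion genes Ocstamp and Dcstamp were at 0.00 to 0.188 TPM. The part of fibroblasts in the rise of Ctsk was not tested.

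All 10 markers of the proximal tubule fell (18.5% of all genes tested fell), with a median log2 fold change of -0.70. With the TPM plus 1, 8 of them fell, and Lrp2 and Cubn did not pass (adjusted p 0.0546 and 0.0811). Lrp2 (megalin) and Cubn, the receptors that bring filtered protein to these lysosomes, fell by 0.46 and 0.58 on the log2 scale, and the transcription factor Hnf4a by 0.76. The 10 log2 fold changes ran from -0.93 (Slc34a1, the phosphate transporter) to -0.46; those of Ctsf and Ctsh lay inside this range, and that of Ctsa was nearer 0. Ctsl and Ctsb rose in the same libraries. The part of the proximal tubule in the falls of Ctsa, Ctsf and Ctsh was not tested.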

How the data were processed

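Poly(A) RNA of 6 kidney libraries was analysed, 3 per group. The authors deposited whole-number counts per gene and TPM values. The gene lengths implied by both tables lay within 1% of the union of exons in GENCODE M21 for all 10590 genes with at least 100 counts in every library. Per the submitters' processing notes, fastp 0.23.4 and the builds GRCm38 and mm10 were used; the sources used here name no aligner, counting tool, strand setting or annotation release.

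From the counts, edgeR 4.0.16 (in R 4.3.3) kept 17194 genes with filterByExpr, scaled libraries by TMM and ran a robust quasi-likelihood F test of genotype. The p-values were adjusted by Benjamini and Hochberg over all genes tested, with a threshold of 0.05. The code was tested on simulated data. Alternatives were other scalings and filters, DESeq2 1.42.0, limma 3.58.1 (voom, or log2 of the TPM plus 1 or 0.1), a replicate block, each library left out in turn, and other gene lengths. The other lengths and the promoter motifs were chosen after seeing the data. The members and gene lists were chosen with earlier results of these data known, so a list's direction is no independent evidence; lists are described by counts and medians.

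Genes were taken for naming by a rule: the members, Cdo1, up to 6 genes per list by smallest p, all genes of lists of 8 or fewer, and genes that complete a count of 5 or fewer. Not every such gene is named, and a single result is not reported here. Serpina3g, M6pr, Igf2r, Lgmn, Tfeb, C1qb, Cubn, Slc34a1, Ctsm, Fdft1, Pltp and Neurl2 fall outside that rule and were chosen after their values were seen. Plots were made with matplotlib 3.10.9 (Python 3.11.15).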

Additional observations from a re-analysis of the deposited data

How the results depend on the processing

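Ctsl, Ctsb and Ctsc kept their direction and calls under all 17 alternatives. Values here set the TPM alternatives in the order plus 1, plus 0.1, and plus 1 on all genes. Over all genes tested, library size only gave 5513 higher and 1685 lower, and the TPM 6714, 6617 and 5588 higher and 1249, 1240 and 1019 lower, against 3250 and 3185 with TMM. Members called lower numbered 0 with the TPM plus 1 on all genes. Ctsd became higher with library size only (0.16) and the TPM (0.24, 0.25 and 0.24). The sign also turned with the TPM for Flcn (0.024, 0.025, 0.024), Tfec (0.010, 0.011, 0.010), Lamp1 (0.014, 0.014, 0.014), Ostm1 (0.043, 0.046, 0.043) and Clcn7 (0.082, 0.084, 0.082). In each of these settings the median of all genes was higher as well.

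With library size only, genes called higher numbered 5 in the sorting list, 4 in the TFEB list and 4 among the other hydrolases; genes called lower numbered 1, 0 and, for the membrane list, 1, and 0 among macrophage markers. With the TPM, the counts higher were 7, 7 and 6 (sorting), 6, 6 and 4 (TFEB), 6, 6 and 6 (hydrolases), 8, 8 and 7 (membrane), 1, 1 and 1 (Ctsc substrates) and, for MHC class II, 7 with plus 1 and with plus 0.1. Counts lower with the TPM were 1 in each for sorting, 6 in each for the hydrolases, and 0 in each for the inhibitors, TFEB, membrane and macrophage lists. Limma-voom called 7 MHC class II genes higher and 1 TFEB gene lower, and both other filters (none, or 1 CPM in 3 libraries) called 2 hydrolases higher.

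Leaving out each library gave 2306 to 3767 genes higher and 2331 to 3553 lower, and 3 to 5 members higher. List counts higher ran from 3 to 6 (inhibitors), 0 to 1 (Ctsc substrates), 0 to 3 (TFEB), 1 to 3 (hydrolases), 3 to 7 (MHC class II) and 6 to 13 (macrophages). List counts lower ran from 0 to 1 (other cathepsins), 0 to 2 (inhibitors), 2 to 4 (sorting), 0 to 3 (TFEB), 2 to 4 (membrane) and 0 to 1 (macrophages). Where the cause of such a change is not part of the setting, it was not tested.

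With the replicate block, 3117 genes were higher and 3029 lower, 2 hydrolases were called higher and 1 TFEB gene lower. No member changed its call under the block; H2-Ab1, Clcn7 and Flcn lost their calls (adjusted p 0.102, 0.0611 and 0.0588), and Gga3 and Rragd gained one (0.0324 and 0.0258). Libraries with the same number deviated from their group means with correlations of -0.0022, 0.011 and 0.0125, so the numbers were not taken as pairs. The least abundant member, Ctsk, with 36 to 98 counts per library, is limited most by depth.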
